A study of Mus musculus with 10 samples.

Results

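The genes described here are 30 glutamate receptors and transporters, among 22552 genes measured by RNA-seq in the cerebellum of E13.5 mouse embryos. They were taken by gene symbol from a fixed list, and all 30 were found. They comprise 3 vesicular transporters, 2 plasma membrane transporters, glutamine synthetase, 4 AMPA receptor subunits, 1 delta receptor, 5 kainate receptor subunits, 7 NMDA receptor subunits and 7 metabotropic receptors. Ezh2 deletion and wild type had 4 libraries each. In the deletion embryos a floxed Ezh2 allele was recombined by Cre under Pax7, and a Rosa-YFP reporter allele that guided dissection was bred in. Deletion is by design limited to cells with a history of Pax7 expression, while RNA came from the whole dissected cerebellum. Both genotypes were of C57BL/6;129 background. Whether the wild type embryos carried Cre or the reporter, and how many embryos made up a library, is not given in the sources used here, so p-values measure the spread between libraries, which may be partly technical.

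Polycomb repressive complex 2, whose main enzyme is Ezh2, marks silent genes with H3K27me3. Glutamate is the main excitatory transmitter of the brain. Vesicular transporters load it into synaptic vesicles and so mark the neurons that release it, plasma membrane transporters clear it from the extracellular space, and glutamine synthetase recycles it in glia. AMPA, kainate and NMDA receptors are ion channels assembled from several subunits, while metabotropic receptors act through G proteins. In the cerebellum the glutamatergic neurons arise from the rhombic lip, and the GABAergic ones, Purkinje cells among them, from the ventricular zone.

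Of the 3 vesicular transporter genes, 2 rose in Ezh2 deletion, and so did 1 metabotropic receptor gene. Slc17a6, which encodes the vesicular transporter VGLUT2, rose 1.46-fold, Slc17a7, which encodes VGLUT1, rose 1.93-fold from a low level, and Grm4 rose 1.52-fold (ratios of mean RPKM). No AMPA, delta or kainate receptor gene passed the test, nor did any tested NMDA receptor gene. Grin2c, an NMDA receptor subunit below the level filter, was 3.26 times as high in Ezh2 deletion as in wild type and showed no overlap between the genotypes.

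Values are RPKM, which divides reads by gene length and library size, so levels of different genes are on 1 scale. The level of a single gene may still be underestimated, since Gapdh, an abundant gene, was at 0.252 RPKM or less in every library. Genes averaging at least 0.25 RPKM over the 8 libraries were tested by limma on log2(RPKM + 0.25), and log2 differences are on that scale, where changes of low genes appear smaller than they are. A gene was called at an adjusted p under 0.05 (Benjamini-Hochberg over 14279 genes). Of the 30 genes, 27 passed the filter and Grin2a, Grin2c and Grm6 did not. Of the 27, limma called 3 higher and 0 lower in Ezh2 deletion, beside 2.71% of all tested genes called higher and 0.742% called lower. Non-overlapping libraries were seen for 4 of the 30 genes above wild type (3 of them tested) and 1 below, beside 6.79% of all tested genes above and 5.61% below. At an unadjusted p under 0.05 (limma) there were 4 higher and 3 lower of the 27 genes, beside 1391 higher and 1137 lower of all 14279 tested genes. Counts at this threshold given below for other lists are to be read beside the same background. Scaling all libraries to a common sum moved the split over all genes to 470 higher and 55 lower, against 387 and 106, and left the members at 3 and 0. The median log2 difference was -0.03 over the 27 genes and -0.01 over all genes tested. In bulk tissue, more cells of a type and more RNA per cell cannot be told apart.

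**Figure D1:**
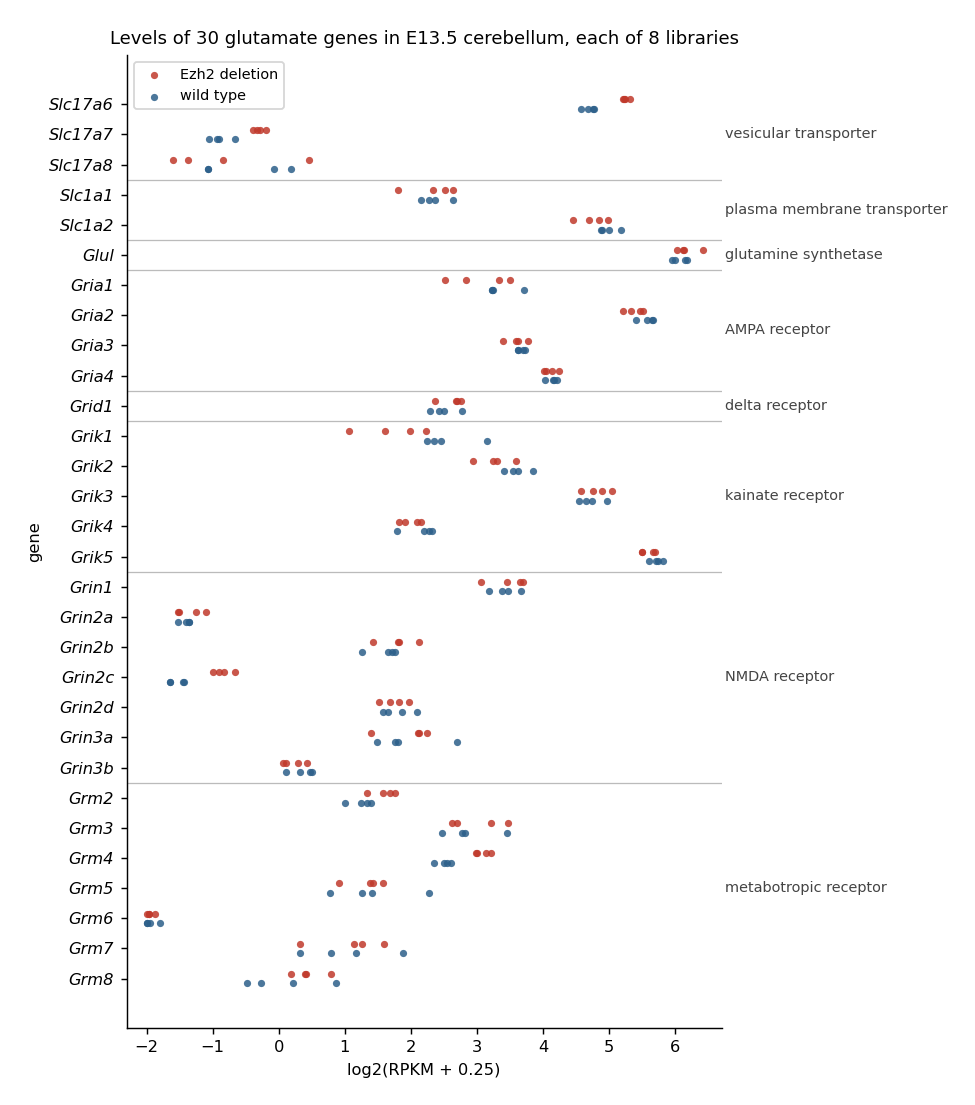
Level of each of the 30 genes, as log2(RPKM + 0.25) on the horizontal axis, with 1 point per library (Ezh2 deletion in red above wild type in blue) and genes grouped by role. The points of the 4 Ezh2 deletion libraries stand to the right of all wild type points for Slc17a6, Slc17a7, Grin2c and Grm4, and to the left for Grik1.

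Some facts of the libraries bear on all results. Ezh2 RNA averaged 54.5 ± 6.91 RPKM in Ezh2 deletion and 78.7 ± 4.54 RPKM in wild type (SD, n = 4 each; limma adjusted p = 0.00737). Each deletion library still held Ezh2 reads, most of all Ezh2 deletion 4 at 64.4 RPKM, and the table does not separate the floxed exons. Sex is not labelled. Xist lay between 54.1 and 94.5 RPKM in Ezh2 deletion 1 to 3, at 0.094 RPKM in Ezh2 deletion 4 and at 0.0712 RPKM or less in wild type. Ddx3y, a gene of the Y chromosome, stood at 0.0219 RPKM or less in Ezh2 deletion 1 to 3, at 7.92 RPKM in Ezh2 deletion 4 and between 8.31 and 9.43 RPKM in wild type. By these genes Ezh2 deletion 1 to 3 read as female, and Ezh2 deletion 4 and all wild type libraries as male. Sex thus nearly coincided with genotype, and in Ezh2 deletion 1 to 3 a difference by sex cannot be told apart from one by genotype. This holds for every called gene. Values of Ezh2 deletion 4 alone against wild type, which share the male pattern, stand beside the called glutamate genes. That comparison takes its spread from wild type alone. It also rests on the deletion library with the most Ezh2 RNA and, at 98.9 RPKM, the highest sum of the midbrain markers given below. The part of these in its values was not tested. Relative depth, read from the steps of single reads in low genes with wild type 1 as 1, lay between 1.25 and 2.11 in Ezh2 deletion and between 1 and 1.35 in wild type.

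Sequence around the annotated starts of the vesicular transporter genes that rose, and of Grin2c, is shown because each of these genes was higher in every deletion library, while their starts differ in base composition. Grm4 was also higher in every deletion library, but no start window was found for it. Each window runs from 250 bases before to 50 bases after a RefSeq start in build GRCm38.p6, 5′ to 3′ along the gene, with every CG dinucleotide in capitals. The RNA values themselves were made on mm9 and do not show which start was used.
Slc17a6 upstream start, chr7:51621580-51621879 (plus strand): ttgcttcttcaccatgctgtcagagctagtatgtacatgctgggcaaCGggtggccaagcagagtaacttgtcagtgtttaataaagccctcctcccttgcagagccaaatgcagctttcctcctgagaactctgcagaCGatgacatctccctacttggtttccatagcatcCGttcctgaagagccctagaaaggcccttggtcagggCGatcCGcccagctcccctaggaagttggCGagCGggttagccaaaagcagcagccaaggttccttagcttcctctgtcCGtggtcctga
Slc17a6 downstream start, chr7:51624387-51624686 (plus strand): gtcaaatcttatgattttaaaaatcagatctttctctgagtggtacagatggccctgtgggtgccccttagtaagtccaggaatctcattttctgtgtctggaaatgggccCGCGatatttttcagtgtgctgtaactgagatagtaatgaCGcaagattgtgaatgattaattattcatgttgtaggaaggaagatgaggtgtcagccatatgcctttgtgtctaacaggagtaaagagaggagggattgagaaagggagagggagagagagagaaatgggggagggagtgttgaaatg
Slc17a7, chr7:45163671-45163970 (plus strand): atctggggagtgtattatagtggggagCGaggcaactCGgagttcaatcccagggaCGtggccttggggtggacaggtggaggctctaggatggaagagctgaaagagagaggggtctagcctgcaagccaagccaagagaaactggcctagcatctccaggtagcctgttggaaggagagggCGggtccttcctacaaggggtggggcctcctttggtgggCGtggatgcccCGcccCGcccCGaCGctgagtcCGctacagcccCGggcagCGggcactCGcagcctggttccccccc
Grin2c, chr11:115267194-115267493 (minus strand): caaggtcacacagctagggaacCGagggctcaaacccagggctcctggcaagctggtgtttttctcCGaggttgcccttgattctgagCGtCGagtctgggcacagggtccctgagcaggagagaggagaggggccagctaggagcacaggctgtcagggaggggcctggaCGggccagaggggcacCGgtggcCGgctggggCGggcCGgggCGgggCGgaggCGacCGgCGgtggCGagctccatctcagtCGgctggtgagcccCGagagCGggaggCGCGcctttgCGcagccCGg

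The windows of Slc17a6 held 8 CG dinucleotides at the upstream start and 3 at the downstream start, that of Slc17a7 held 13 and that of Grin2c 22. The median was 7 over 32851 windows of all genes and 12.5 over the 26 windows found for 21 of the 30 genes. The letters TGACAG, searched on both strands, were present at the upstream Slc17a6 start and at Grin2c. They occurred in 19.2% of all windows and in 34.6% of the 26 windows. On the same search TAATTA was present at the downstream Slc17a6 start, in 5.29% of all windows and in 7.69% of the 26. CAGCTG was present at 0 of these 4 starts, in 16.3% of all windows and in 7.69% of the 26. A match is a description of letters and not evidence of binding. Across the 26 windows the number of CG dinucleotides lay between 1 in the window of Slc1a2 and 50 in that of Grik3.

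Vesicular transporter genes made up 2 of the 3 called genes. Slc17a6 was at 39.4, 36.6, 37.4 and 37.1 RPKM in Ezh2 deletion 1 to 4, against 25.5, 26.8, 23.6 and 27.02 RPKM in wild type 1 to 4. The genotypes did not overlap, and the lowest deletion library stood well above the highest wild type library. The mean was 37.6 ± 1.25 RPKM in Ezh2 deletion and 25.7 ± 1.57 RPKM in wild type (SD, n = 4 each), which differ by 0.55 on the log2 scale (SE 0.0542, adjusted p = 4.61e-04 by limma). In Ezh2 deletion 4 alone the log2 difference was 0.52 (limma adjusted p = 0.0426), where 1.38% of genes were called higher and 0.841% lower.

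Slc17a7, which becomes the main vesicular transporter of mature granule cells, was at 0.576, 0.622, 0.544 and 0.516 RPKM in Ezh2 deletion, against 0.384, 0.282, 0.229 and 0.274 RPKM in wild type. The genotypes again did not overlap, though both were far below Slc17a6. Its log2 difference was 0.59 (SE 0.135, limma adjusted p = 0.0441). That call was lost when any 1 library other than wild type 1 was left out (limma adjusted p between 0.0738 and 0.129), and in Ezh2 deletion 4 alone (log2 difference 0.51, limma adjusted p = 0.319). Slc17a8, which encodes VGLUT3 and is known from non-glutamatergic neurons as well, was at 0.079, 1.12, 0.305 and 0.135 RPKM in Ezh2 deletion, against 0.884, 0.704, 0.226 and 0.226 RPKM in wild type. It varied more within each genotype than between them (log2 difference -0.34, 95% interval -1.44 to 0.77, limma adjusted p = 0.766). Slc17a6 made up most of the summed RPKM of the 3 vesicular transporters, and Slc17a7 1.46 ± 0.111% in Ezh2 deletion and 1.10 ± 0.225% in wild type (SD, n = 4 each).

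**Figure D2:**
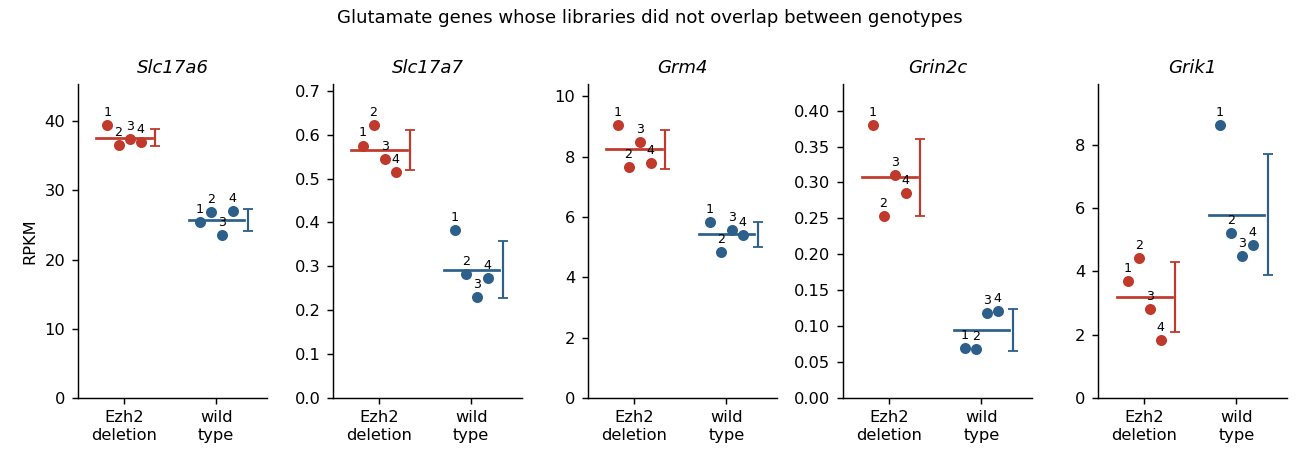
RPKM of the 5 genes whose libraries did not overlap between the genotypes, with Ezh2 deletion left of wild type, numbered points for libraries, horizontal bars for means and error bars for the SD (n = 4 each). Slc17a6, Slc17a7, Grm4 and Grin2c were higher in every deletion library, whereas Grik1 was lower in every deletion library and spread widely within both genotypes.

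Plasma membrane transporters and glutamine synthetase did not pass the test. Slc1a2, a glial transporter that clears glutamate from the synapse in mature brain, was at 31.4, 25.6, 28.4 and 21.6 RPKM in Ezh2 deletion, against 31.8, 29.4, 29.2 and 36.1 RPKM in wild type. Only Ezh2 deletion 1 overlapped the wild type range (log2 difference -0.25, 95% interval -0.50 to 0.01, limma adjusted p = 0.295). Slc1a1, a neuronal transporter, lay between 3.23 and 5.99 RPKM in Ezh2 deletion and between 4.19 and 5.96 RPKM in wild type (limma adjusted p = 0.946). Glul, glutamine synthetase, had the highest level of the 30 genes, with 68.8, 85.6, 69.9 and 64.7 RPKM in Ezh2 deletion and 72.0, 70.6, 61.9 and 63.4 RPKM in wild type. Its interval, -0.09 to 0.30 on the log2 scale, reached no further than a small change in either direction (limma adjusted p = 0.584).

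AMPA receptor genes, which encode the fast excitatory channels, were all expressed and none was called. Gria2, whose subunit limits the calcium flow of the channel, was the most abundant, with 39.8, 45.2, 43.8 and 36.6 RPKM in Ezh2 deletion and 50.2, 47.2, 49.97 and 42.3 RPKM in wild type. Deletion libraries 2 and 3 lay within the wild type range and the others below it. Its log2 difference of -0.20 (95% interval -0.37 to -0.02) missed the threshold after adjustment (limma adjusted p = 0.224). Gria4 averaged 17.0 RPKM in Ezh2 deletion and 17.4 RPKM in wild type, and Gria3 11.9 RPKM in Ezh2 deletion and 12.5 RPKM in wild type, with intervals of -0.17 to 0.11 and -0.25 to 0.10 on the log2 scale. Gria1 was at 6.89, 11.1, 9.85 and 5.44 RPKM in Ezh2 deletion, against 12.8, 9.15, 9.21 and 9.10 RPKM in wild type. It spread more than the other AMPA receptor genes, and its interval was -0.81 to 0.20 (limma adjusted p = 0.516). By share, Gria2 took 52.6 ± 1.00% of the summed AMPA receptor RPKM in Ezh2 deletion and 54.2 ± 1.94% in wild type (SD, n = 4 each). Grid1, a delta receptor that binds synaptic organizers instead of opening to glutamate, was at 6.53, 6.19, 6.21 and 4.91 RPKM in Ezh2 deletion, against 6.56, 5.10, 4.64 and 5.41 RPKM in wild type, an overlapping pair of ranges (limma adjusted p = 0.614).

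Kainate receptors were led by Grik5, a subunit that needs a partner from Grik1 to Grik3 to form a channel. Grik5 was at 50.4, 44.8, 51.7 and 45.0 RPKM in Ezh2 deletion, against 53.3, 48.3, 52.1 and 56.1 RPKM in wild type, which overlapped (log2 difference -0.13, limma adjusted p = 0.342). Grik3 averaged 28.1 ± 3.94 RPKM in Ezh2 deletion and 26.3 ± 3.37 RPKM in wild type (SD, n = 4 each). Grik4, which needs such a partner too, averaged 3.76 ± 0.428 RPKM in Ezh2 deletion and 4.22 ± 0.684 RPKM in wild type (SD, n = 4 each). Neither was called (limma adjusted p = 0.725 and 0.596). Grik1 was at 3.70, 4.43, 2.80 and 1.84 RPKM in Ezh2 deletion, against 8.63, 5.21, 4.48 and 4.85 RPKM in wild type. Its highest deletion library fell just short of its lowest wild type library, and 5.61% of all tested genes had their 4 deletion libraries below their 4 wild type libraries. The log2 difference of -0.83 had the widest error among the kainate receptor genes (SE 0.278, 95% interval -1.46 to -0.19) and was not called (limma adjusted p = 0.167). Its 20 alternative fits gave adjusted p between 0.0859 and 0.312. Grik2 was at 9.66, 11.8, 9.21 and 7.39 RPKM in Ezh2 deletion, against 14.2, 12.03, 10.4 and 11.4 RPKM in wild type (log2 difference -0.34, limma adjusted p = 0.238). Grik1 and Grik2 had log2 differences of -1.48 and -0.67 in Ezh2 deletion 4 alone, which held the lowest deletion value of both genes.

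NMDA receptor genes were led by Grin1, the subunit that every NMDA receptor needs. Grin1 was at 10.7, 12.3, 12.8 and 8.10 RPKM in Ezh2 deletion, against 12.4, 8.80, 10.2 and 10.8 RPKM in wild type, and the ranges overlapped (log2 difference 0.05, 95% interval -0.28 to 0.38, limma adjusted p = 0.908). Among the Grin2 subunits, which set the kinetics of the channel, Grin2b and Grin2d are the forms known from the embryonic brain, and Grin2a and Grin2c from the maturing one. Grin2b averaged 3.26 ± 0.672 RPKM in Ezh2 deletion and 2.80 ± 0.458 RPKM in wild type, and Grin2d 3.12 ± 0.455 RPKM in Ezh2 deletion and 3.25 ± 0.574 RPKM in wild type (SD, n = 4 each). Neither was called (limma adjusted p = 0.574 and 0.891). Grin2a stayed below the filter, between 0.0959 and 0.218 RPKM in Ezh2 deletion and between 0.097 and 0.141 RPKM in wild type.

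Grin2c, known in the adult from cerebellar granule cells, was at 0.380, 0.253, 0.310 and 0.285 RPKM in Ezh2 deletion, against 0.0689, 0.0685, 0.118 and 0.122 RPKM in wild type. All deletion libraries stood above all wild type libraries, as they did in 4.05% of the genes below the filter. The ratio of means was 3.26, at levels where a few reads make up a value. Without the filter its log2 difference was 0.69 (limma adjusted p = 0.00664), in a fit that called 2.18% of 19268 genes higher. Grin2c made up 4.58 ± 1.03% of the summed Grin2 RPKM in Ezh2 deletion and 1.51 ± 0.426% in wild type, while Grin2b and Grin2d together held nearly all the rest in both (SD, n = 4 each). Grin3a, an inhibitory subunit of developing neurons, averaged 3.77 RPKM in Ezh2 deletion and 3.80 RPKM in wild type, and Grin3b 0.924 RPKM in Ezh2 deletion and 1.03 RPKM in wild type (limma adjusted p = 0.965 and 0.677).

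**Figure D3:**
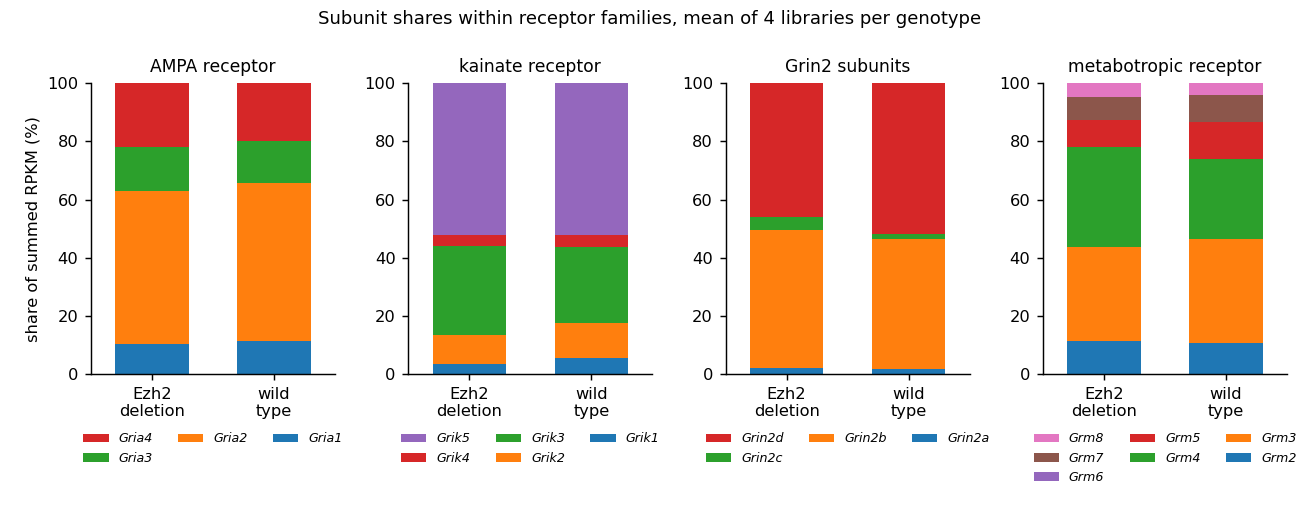
Share of each gene in the summed RPKM of its receptor family (vertical axis, percent, mean of 4 libraries), with Ezh2 deletion left of wild type in each panel. Gria2 and Grik5 each took over 50% of their family in both genotypes, Grin2c took 4.58% of the Grin2 sum in Ezh2 deletion and 1.51% in wild type, and Grm4 took 34.3% of the metabotropic sum in Ezh2 deletion and 27.5% in wild type.

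Of the 6 tested metabotropic receptor genes, Grm4 was called. Grm4, a presynaptic receptor that inhibits release and is known from cerebellar granule cells, was at 9.05, 7.66, 8.504 and 7.78 RPKM in Ezh2 deletion, against 5.84, 4.85, 5.57 and 5.41 RPKM in wild type. The genotypes did not overlap, with a clear gap between them. The mean was 8.25 ± 0.65 RPKM in Ezh2 deletion and 5.42 ± 0.42 RPKM in wild type (SD, n = 4 each), or 0.58 apart on the log2 scale (SE 0.0813, adjusted p = 0.00377 by limma). In Ezh2 deletion 4 alone the log2 difference was 0.51 and was not called (limma adjusted p = 0.111).

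Grm3, of the same inhibitory class as Grm2, was on average over all libraries the most abundant metabotropic gene. It was at 5.94, 10.8, 8.99 and 6.21 RPKM in Ezh2 deletion, against 10.7, 6.57, 6.81 and 5.31 RPKM in wild type, with ranges that largely coincided (limma adjusted p = 0.851). Grm2 was at 2.95, 2.28, 3.15 and 2.74 RPKM in Ezh2 deletion, against 2.12, 2.39, 1.75 and 2.27 RPKM in wild type. Only Ezh2 deletion 2 fell within the wild type range (log2 difference 0.34, 95% interval 0.06 to 0.63, limma adjusted p = 0.194). Grm5, a postsynaptic receptor that raises intracellular calcium, averaged 2.29 ± 0.47 RPKM in Ezh2 deletion and 2.65 ± 1.36 RPKM in wild type. Grm7 averaged 1.97 ± 0.732 RPKM in Ezh2 deletion and 1.98 ± 1.06 RPKM in wild type, and Grm8, of the same class as Grm4 and Grm7, 1.13 ± 0.251 RPKM in Ezh2 deletion and 0.886 ± 0.501 RPKM in wild type (SD, n = 4 each). None of these 3 was called (limma adjusted p = 0.892, 0.971 and 0.544), and their intervals were wide, reaching -0.79 to 0.87 for Grm7. Grm6, a receptor of retinal bipolar cells, was listed at 0.00625, 0, 0.0235 and 0.00579 RPKM in Ezh2 deletion, against 0.0391, 0, 0.00893 and 0 RPKM in wild type. It was thus at or near 0 in every library, and a 0 in this file can be a failed estimate.

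**Figure D4:**
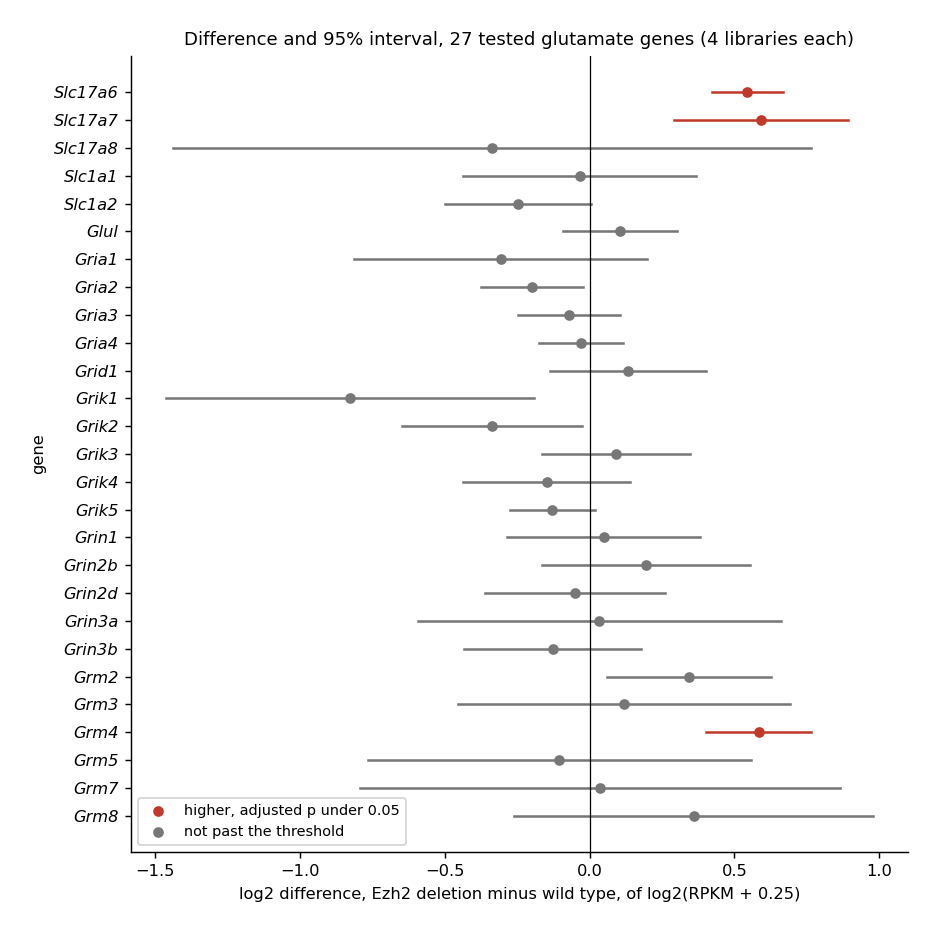
Log2 difference (Ezh2 deletion minus wild type, horizontal axis) with its 95% interval for the 27 tested genes, in order of role. Slc17a6, Slc17a7 and Grm4, in red, were higher at an adjusted p under 0.05, and the other 24 genes, in grey, did not pass the threshold.

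Within each genotype 1 library stood out over many of these genes. Wild type 1 held the highest wild type value in 17 of the 27 tested genes, where it did so in 31.2% of all tested genes. Among them were Grik1, Gria1, Grin3a, Grm3, Grm5, Grm7 and Grm8. Ezh2 deletion 4 held the lowest deletion value in 19 of the 27 genes, against 31.5% of all tested genes, and the highest deletion value in 0. Relative to its genotype's mean, the median of the 27 genes was 0.23 higher on the log2 scale in wild type 1 and -0.26 in Ezh2 deletion 4. Over all tested genes the medians were -0.0021 and -0.0045. Ezh2 deletion 4 was also the deletion library with the lowest summed level of the Purkinje cell markers, 351 RPKM, and the highest of the midbrain markers, 98.9 RPKM. The part of these in the lower values was not tested. Slc17a6 was neither highest nor lowest of its genotype in either of these libraries.

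**Figure D5:**
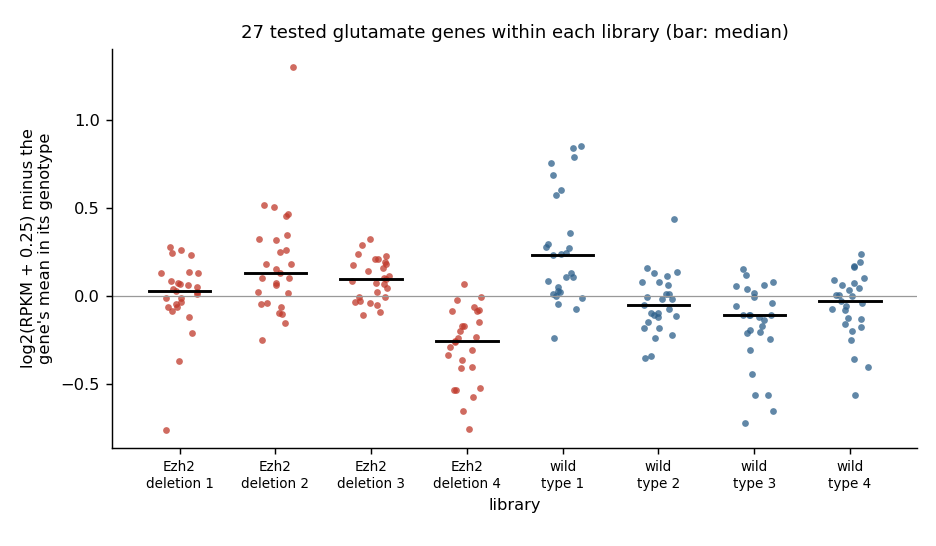
Deviation of each of the 27 tested genes from its own mean within the genotype, on the log2(RPKM + 0.25) scale (vertical axis), by library, with a black bar for the median. The medians were 0.23 in wild type 1 and -0.26 in Ezh2 deletion 4, and those of the other 6 libraries lay between -0.11 and 0.13.

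Other genes of the glutamate system were taken as a list of 45 receptor, transporter, enzyme, auxiliary and scaffold genes, of which 44 were tested. By limma, 3 of them rose and 3 fell in Ezh2 deletion, again beside 2.71% and 0.742% of all tested genes. Slc1a6, the glutamate transporter of Purkinje cells, was at 4.47, 4.24, 4.67 and 4.78 RPKM in Ezh2 deletion, against 10.4, 9.19, 10.4 and 9.89 RPKM in wild type (log2 difference -1.09, limma adjusted p = 1.47e-05). Every deletion library stood far below every wild type library.

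Among 11 auxiliary subunits, which control the trafficking and gating of receptors, 1 was higher and 2 were lower. Cnih3, a cornichon protein that binds AMPA receptors, was at 3.53, 4.43, 3.68 and 2.78 RPKM in Ezh2 deletion, against 1.39, 1.56, 1.02 and 1.49 RPKM in wild type (log2 difference 1.25, limma adjusted p = 0.00213). Cacng7, an AMPA receptor regulator of the stargazin family, averaged 112 ± 3.37 RPKM in Ezh2 deletion and 129 ± 0.428 RPKM in wild type (SD, n = 4 each; log2 difference -0.21, limma adjusted p = 0.0228). Neto2, which binds kainate receptors, averaged 23.7 ± 2.21 RPKM in Ezh2 deletion and 29.1 ± 0.78 RPKM in wild type (SD, n = 4 each; log2 difference -0.29, limma adjusted p = 0.0461). Both falls were small. When the libraries were scaled to a common sum, neither was called (limma adjusted p = 0.144 for Cacng7 and 0.138 for Neto2). Nor was either called when any 1 wild type library was left out, Cacng7 without Ezh2 deletion 2, or Neto2 without Ezh2 deletion 1 or 3.

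Of 13 scaffold genes only Homer2 was called. It encodes a scaffold that links metabotropic receptors to internal calcium stores, and was at 13.03, 14.2, 13.3 and 12.7 RPKM in Ezh2 deletion, against 7.98, 8.64, 8.41 and 7.99 RPKM in wild type (log2 difference 0.67, limma adjusted p = 1.47e-04). Of 6 secreted synaptic organizers only Nptx2, a pentraxin that clusters AMPA receptors, was called, with 3.34, 5.16, 3.72 and 3.02 RPKM in Ezh2 deletion and 2.15, 1.66, 1.82 and 1.83 RPKM in wild type (log2 difference 0.92, limma adjusted p = 0.0109). The deletion libraries of both genes stood above all wild type libraries. In Ezh2 deletion 4 alone Homer2, Slc1a6 and Neto2 were called, and Cnih3, Nptx2 and Cacng7 were not (limma adjusted p = 0.109, 0.132 and 0.0849). Of 8 genes of glutamate metabolism and glutamine transport 0 were called by limma, with 1 higher and 1 lower at an unadjusted p under 0.05.

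Markers of cell types that make or receive glutamate were measured in the same libraries. Of 12 markers of the rhombic lip and its neurons, 3 were higher and 0 lower (limma; 7 and 1 at an unadjusted p under 0.05). These were Barhl2, Lhx2 and Meis2, and Meis2 averaged 76.8 ± 7.58 RPKM in Ezh2 deletion and 43.3 ± 3.51 RPKM in wild type (SD, n = 4 each; limma adjusted p = 4.65e-04). Log2 differences were positive for 8 of the 12 markers and negative for 4. The negative ones were Tbr1 (-0.47), Pax6 (-0.26), Neurod1 (-0.19) and Lmx1a (-0.0092), and none was called. The summed level of the list lay between 325 and 350 RPKM in Ezh2 deletion and between 260 and 268 RPKM in wild type. Besides Meis2, its rise lay largely in Lhx2 and Lhx9, of which Lhx9 was not called. They averaged 32.3 and 40.1 RPKM in Ezh2 deletion and 12.7 and 25.2 RPKM in wild type. Whether RNA of Lhx2, Lhx9, Barhl2 and Meis2 came from the rhombic lip or from other cells of the dissected tissue was not tested. Atoh1, which defines the rhombic lip, averaged 18.5 ± 3.65 RPKM in Ezh2 deletion and 14.3 ± 0.91 RPKM in wild type and was not called (SD, n = 4 each; limma adjusted p = 0.19).

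Of 12 midbrain markers 10 were tested, and 3 were higher, Pou4f1 and Tfap2d among them, and 0 lower (limma; 6 and 0 at an unadjusted p under 0.05). The midbrain holds glutamatergic neurons next to the dissected tissue. The summed level of these markers was 51.9, 54.9, 67.6 and 98.9 RPKM in Ezh2 deletion 1 to 4 and 31.8, 39.7, 29.0 and 33.8 RPKM in wild type 1 to 4. Much of the spread among the deletion libraries came from Tal2, at 0.687, 0.814, 9.02 and 26.6 RPKM in Ezh2 deletion, against 0.859, 1.44, 0.314 and 0.447 RPKM in wild type, and from Otx2. Otx2 was at 4.14, 14.7, 15.3 and 21.1 RPKM in Ezh2 deletion, against 7.55, 6.90, 3.86 and 3.51 RPKM in wild type. Foxa1, a floor plate factor, was at 0.277, 0.442, 0.358 and 0.369 RPKM in Ezh2 deletion 1 to 4, while every wild type library listed it at 0. Foxa2 was at 0.0597 RPKM or less in every library. Sox14, the most abundant marker of the list in wild type, averaged 11.4 RPKM in Ezh2 deletion and 11.7 RPKM in wild type, and Pou4f1, the most abundant in Ezh2 deletion, 14.9 RPKM in Ezh2 deletion and 6.80 RPKM in wild type. The part of rhombic lip and midbrain cells in the rise of Slc17a6 and Grm4 was not tested.

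Of 9 Purkinje cell markers 4 were lower and 0 higher (limma; 6 and 0 at an unadjusted p under 0.05), among them Etv1, Skor2 and Pcp4. The summed level lay between 351 and 458 RPKM in Ezh2 deletion and between 603 and 663 RPKM in wild type. Pcp4, the most abundant, averaged 147 ± 42.7 RPKM in Ezh2 deletion and 271 ± 33.8 RPKM in wild type (SD, n = 4 each; limma adjusted p = 0.0453). Pcp4 and Foxp2 were each called in 7 of 20 alternative fits, and Etv1 in all 20. Their part in the values of Grik1 and Slc1a6 was not tested. Of 12 general neuronal markers 0 were called by limma, with 1 higher and 2 lower at an unadjusted p under 0.05, and Tubb3, the most abundant, averaged 1423 RPKM in Ezh2 deletion and 1381 RPKM in wild type. Of 9 radial glia markers Hes1 was higher and Fabp7 lower, Fabp7 averaging 1182 RPKM in Ezh2 deletion and 1661 RPKM in wild type (limma adjusted p = 0.00249). Hes1 was called in 10 of 20 alternative fits and not in Ezh2 deletion 4 alone (limma adjusted p = 0.0919). Of 4 markers of GABAergic interneurons Pax2 was higher, while Slc32a1, the vesicular transporter of GABA and the most abundant of the list, averaged 33.9 RPKM in Ezh2 deletion and 33.3 RPKM in wild type and was not called (limma adjusted p = 0.872). Of 4 tested markers of oligodendrocyte precursors Olig1 and Olig2 were lower and 0 higher (limma; 2 lower and 1 higher at an unadjusted p under 0.05). Pdgfra averaged 1.52 RPKM in Ezh2 deletion and 0.686 RPKM in wild type and was not called (limma adjusted p = 0.207), and Cspg4 averaged 0.647 RPKM in Ezh2 deletion and 0.549 RPKM in wild type (limma adjusted p = 0.616). Olig2 averaged 7.45 RPKM in Ezh2 deletion and 14.04 RPKM in wild type (limma adjusted p = 5.11e-05). Sox10, below the filter, averaged 0.217 RPKM in Ezh2 deletion and 0.208 RPKM in wild type. The list thus did not move in 1 direction, and whether these precursors were fewer was not tested.

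Markers of erythroid cells, microglia, endothelium, meningeal mesenchyme and choroid plexus gave 0 calls by limma, with 1 erythroid gene lower and 1 microglial gene, Csf1r, higher at an unadjusted p under 0.05. Of the most abundant of each, Hbb-y averaged 408 RPKM in Ezh2 deletion and 307 RPKM in wild type, Csf1r 3.51 RPKM in Ezh2 deletion and 2.55 RPKM in wild type, and Cldn5 22.5 RPKM in Ezh2 deletion and 26.4 RPKM in wild type. Col3a1 was at 1.08, 5.22, 0.622 and 0.557 RPKM in Ezh2 deletion, against 0.934, 2.78, 0.839 and 0.543 RPKM in wild type. Ttr, of the choroid plexus, was at 16.2, 152, 0.382 and 0.188 RPKM in Ezh2 deletion, against 0.874, 4.995, 0.0725 and 1.12 RPKM in wild type, so Ezh2 deletion 2 stood apart. Without Ezh2 deletion 2 the log2 differences of Slc17a6 and Grm4 were 0.56 and 0.62, and both were called.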

How the data were processed

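RNA was measured in 4 Ezh2 deletion and 4 wild type libraries of E13.5 cerebellum. The series also has H3K27me3 ChIP-seq, with 1 sample per genotype, not analysed here. The authors deposited 1 table of RPKM values with 1 column per library. Per the labels' protocols, the libraries were polyA RNA-seq on the Illumina procedure. The submitters' processing notes list build mm9 and the tools Cuffdiff, SICER, TopHat and Bowtie, without saying which served RNA-seq. The sources used here do not give annotation, strand use or the treatment of multiply mapped reads, so overlapping genes are uncertain. Groups and replicate numbers came from sample titles.

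No count model fits RPKM, and read totals are unknown. Relative depth came from genes with mean RPKM under 0.1, where 79.3% of values came within 0.05 of whole multiples of the gene's smallest value once scaled. Tuba1a was listed at 0 throughout and Gapdh at 0.252 RPKM or less, both abundant genes, so values of 0 and low values may be failed estimates.

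Genes with a mean of at least 0.25 RPKM were tested with limma 3.58.1 (two-sided; robust eBayes with a trend, through statmod 1.5.0, R 4.3.3) on log2(RPKM + 0.25). Adjustment was Benjamini-Hochberg over all 14279 tested genes. Simulated data for this comparison, over 14279 genes with known changes, were used to test it: 66% of 1.5-fold and 90% of 2-fold changes were recovered. Changes were set on the log2(RPKM + 0.25) scale, where a fold change in RPKM of a low gene is smaller. The simulated noise was independent between genes, without deviations shared by many genes of a library. Recovery in the real data may therefore be lower. Values in every library are given for called genes, for genes without overlap and for the most abundant gene of each role, and values for every called gene of the 45 other glutamate genes. Of the marker lists, the most abundant gene and up to 3 called genes are named, and further genes were named after their values were seen. The 30 genes and all lists were chosen with earlier results of these data known. Of 130 list genes 2 were found under older names and 1 was not found. Some list genes are not reported here. Starts were taken from RefSeq, GRCm38.p6, by symbol. Alternatives covered pseudocount, filter, scaling, variance model, weights, a replicate block, libraries left out and the threshold. Leaving out wild type 1 and Ezh2 deletion 2 together was added after seeing the data.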

Additional observations from a re-analysis of the deposited data

Results flagged for a closer look

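Gria1 in wild type 1 stood apart from the other wild type libraries, at 12.8 RPKM against 9.15, 9.21 and 9.10 RPKM in wild type 2 to 4. Its gap to the nearest library was 0.971 of the group's range, above Dixon's 95% critical value for 4 samples. It was the only one so marked of 62 groups of 4 libraries (30 genes and Ezh2 in 2 genotypes), and chance marks about 1 in 20. Wild type 1 also held the highest wild type value in 17 of the 27 tested genes.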

How the results depend on the processing

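Slc17a6 was called in all 20 alternative fits (limma adjusted p between 2.3e-04 and 0.0426), Grm4 in 19 of 20 and Slc17a7 in 8 of the 19 that kept it. The 3 higher genes became 4 without the filter, which admits Grin2c, and 2 with a 1 RPKM filter, which drops Slc17a7, with quantile normalization, at an adjusted p under 0.01, or without wild type 1 and Ezh2 deletion 2. With 1 library left out there were 2 to 3 higher and 0 lower. Ezh2 deletion 4 alone gave 1 higher gene of the 27, 1 higher of the 44 other glutamate genes and 195 higher over all genes. The 3 lower of the other glutamate genes were 1 when scaled to a common sum, with quantile normalization, with erythroid and Y-linked genes and Xist removed, or at an adjusted p under 0.01, and 1 to 3 with 1 library left out.

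Over all genes there were 387 higher and 106 lower, against 470 and 55 scaled to a common sum and 476 and 55 with erythroid and Y-linked genes and Xist removed, 181 lower with array weights, 614 and 248 at an adjusted p under 0.1 and 173 and 28 under 0.01. With 1 library left out, higher genes numbered 223 to 352 and lower genes 40 to 100. They moved by over 1.5 times for higher genes, to 227 without Ezh2 deletion 3, 244 and 223 without wild type 3 and 4, and for lower genes, to 70 without Ezh2 deletion 1, 47 without Ezh2 deletion 3 and 62, 55, 47 and 40 without wild type 1, 2, 3 and 4. Same-numbered libraries of the genotypes deviated together with correlations of 0.0034 to 0.0867, and only Ezh2 deletion 2 correlated best with its own number. Differently numbered pairs lay between -0.2304 and 0.1947. The labels do not say whether same-numbered libraries shared a litter or batch, and correlations this weak cannot decide it. With the replicate block there were 2 higher members (Slc17a7 was not called), 1 lower other glutamate gene and 53 lower genes over all.

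Of 591 comparisons of a tested gene with an alternative, 41 changed sign. They were in 12 genes, all uncalled and with log2 differences of at most 0.19 in size. Both other thresholds, both other filters, the other variance model and the replicate block leave the log2 difference as it was. Their comparisons could not change sign, so the share of 41 in 591 is lower than among settings that could. Ezh2 deletion 4 alone gave -0.047 for Glul, -0.13 for Grid1, -0.15 for Grik3, -0.36 for Grin1, -0.17 for Grin2b, -0.54 for Grin3a, -0.19 for Grm3 and -0.72 for Grm7. Slc1a1 was 0.014 scaled to a common sum, 0.015 with erythroid and Y-linked genes and Xist removed and 0.082 with array weights. Gria4 was 0.021 under both scalings. Quantile normalization gave -0.033 for Grin3a and -0.067 for Grm7, and array weights 0.038 for Grin2d and 0.086 for Grm5. Without wild type 1 and Ezh2 deletion 2 these were 0.024 for Grin2d and 0.091 for Grm5. With 1 library left out the ranges were -0.14 to 0.14 for Slc1a1, -0.074 to 0.00096 for Gria4, -0.032 to 0.18 for Grin1, -0.13 to 0.048 for Grin2d, -0.11 to 0.29 for Grin3a, -0.038 to 0.31 for Grm3, -0.32 to 0.18 for Grm5 and -0.20 to 0.32 for Grm7. The causes were not tested. RPKM without read totals limits what can be said of genes below 0.25 RPKM.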
